A study of Mus musculus with 32 samples.

Results

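The interval from 24 h to 48 h of GATA6-driven differentiation of mouse embryonic stem (ES) cells was examined as the 4 samples at 48 h against the 4 samples at 24 h, 8 of the 32 RNA-seq samples of a time course with 8 time points. The interval was chosen because, of the 7 pairs of neighbouring time points, this one had the lowest correlation of mean levels. All cells were KH2 ES cells of a line with a doxycycline-inducible *Gata6* transgene, which is also linked to a DsRed reporter, and their strain is given as C57BL/6. Both groups had been moved from 2i and LIF medium to serum medium that also held LIF, with 1 μg/mL doxycycline, which was taken away after 12 h, so the 24 h cells had spent 12 h and the 48 h cells 36 h without the drug in serum medium. The transgene sits as a single copy in 1 engineered line, the cells were harvested without sorting, and no 24 h or 48 h sample without induction was analysed here, so time in culture and the response to GATA6 cannot be told apart. The labels do not tie the 4 replicates of a time point to separate cultures, and the study's reporting form says only that replicate experiments were independent, so what part of the spread behind the p-values is technical was not tested.

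In the mouse blastocyst, cells of the inner cell mass that keep GATA6 become the primitive endoderm (PrE), and those that keep NANOG become the epiblast (Epi). The PrE later gives rise to the visceral endoderm, an absorptive epithelium that takes up maternal proteins through the receptors cubilin and megalin and secretes plasma proteins, and to the parietal endoderm, which lays down the thick basement membrane called Reichert's membrane. A distal and anterior part of the visceral endoderm also sends and blocks Nodal, Wnt and BMP signals that pattern the epiblast below it.

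The 8 libraries held between 3844937 and 12301732 reads on genes, with the shallowest at 24 h (replicate 3, 3844937) and at 48 h (replicate 2, 4220117). Levels are given as normalized counts, that is, reads divided by the size factor of the library. At each of the 2 time points replicates 1 and 2 resembled each other, as did replicates 3 and 4. A chi-square comparison of read counts gave 1.45 to 2.21 per degree of freedom within these pairs and 8.08 to 18.6 across them. No 2 libraries agreed within sampling noise, and the labels name no batch. The share of reads on mitochondrially encoded genes was 2.18% ± 0.231 (SD, n = 4) at 24 h and 2.15% ± 0.136 at 48 h (exact two-sided permutation test, p = 0.8). The 100 most abundant genes of each library took 16.4% ± 0.167 of its reads at 24 h and 19.8% ± 1.36 at 48 h, with no overlap between the groups (difference 3.39 percentage points, exact two-sided permutation test, p = 0.0286, the smallest that 4 against 4 allows). Without any 1 library that test can reach no lower than 0.0571, which it did each time.

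All 10 PrE markers passed the expression filter. Their summed normalized counts ran from 35848 to 66778 over the samples at 24 h and from 122126 to 233123 at 48 h. Most of that rise came from *Col4a1*, *Lama1*, *Cubn* and *Dab2*, and 3 of the 10 markers were called higher at 4-fold, against 2.51% of all genes tested. *Pdgfra*, *Sox7*, *Gata6* and *Foxa2* had log2 fold changes of only 0.24 to 0.52. The 8 epiblast markers summed to between 4695 and 5140 at 24 h and between 3330 and 4264 at 48 h, and none of them was called in either direction. Of the genes for plasma proteins of mature visceral endoderm, *Alb* (albumin) had no read in any of the 8 samples, *Afp* (alpha-fetoprotein) had at most 1 read and *Apoa1* (apolipoprotein A-I) at most 3 reads in any of them, while other secreted products, described below, were detected. In bulk RNA, fewer cells of a type and less RNA per cell cannot be told apart, and this holds for every gene below.

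To find which genes changed between 24 h and 48 h, all 15227 genes that passed the expression filter were tested in 1 model of the 32 samples. A gene was called when its adjusted p-value was below 0.1 and its level differed at least 4-fold, the thresholds used by the study. By this rule 382 genes were higher at 48 h, 2.51% of those tested, and 214 were lower, 1.41%. At a 2-fold limit the counts were 1422 higher, 9.34%, and 1064 lower, 6.99%. Within replicates 1 and 2 alone 353 genes were called higher and 293 lower, and within replicates 3 and 4 alone 456 and 245. Most of the called genes were protein coding, 363 of the higher and 184 of the lower genes, and long non-coding transcripts made up 13 and 19. The median size of the log2 fold change over the called genes was 2.64 for those that were higher and 2.34 for those that were lower. The groups did not overlap for 376 of the 382 and 211 of the 214, so separation of the samples adds little to a call.

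The mean levels at 24 h and 48 h correlated with Pearson's r = 0.954 across genes, against values from 0.962 to 0.983 for the other 6 neighbouring pairs. Genes are not independent replicates, and since this value chose the interval it is given without a test. The step before it, 16 h to 24 h, had 80 genes called higher, 0.525%, and 111 called lower, 0.729%. The step after it, 48 h to 96 h, had 198 called higher, 1.3%, and 365 called lower, 2.4%. These steps share the 24 h and 48 h samples with the interval described here and differ from it in length. In the plot of change against level, the called genes spread over the whole range of expression, from transcripts with a handful of reads to the most abundant messages of the cell.

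**Figure D1:**
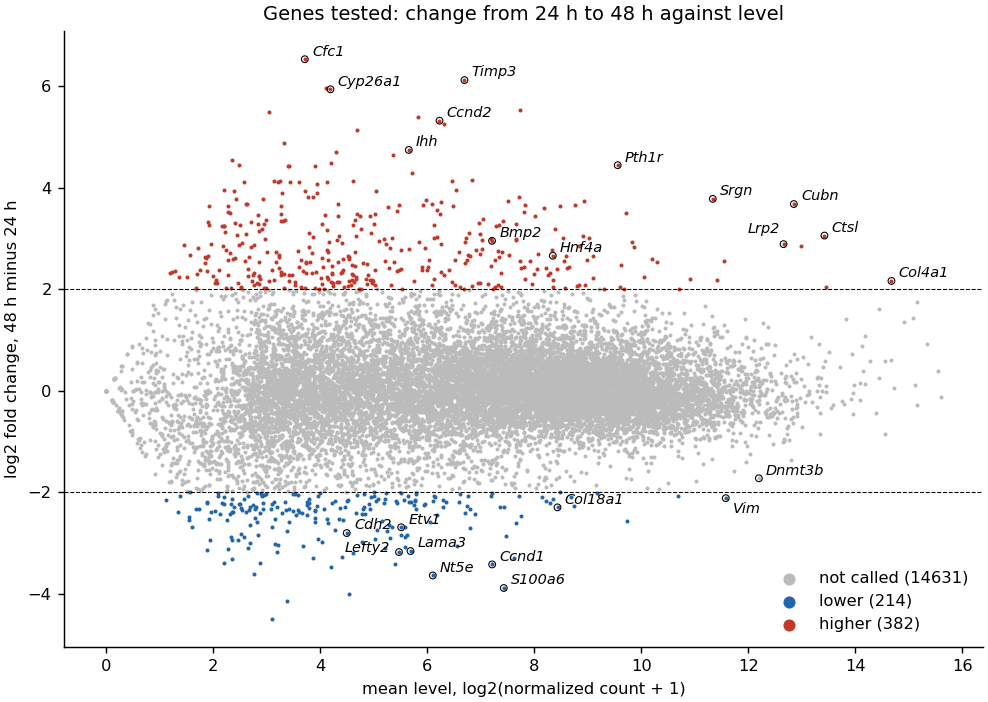
Log2 fold change from 24 h to 48 h against mean level, log2(normalized count + 1), for the 15227 genes tested. Red points are the 382 genes called higher at 48 h, blue points the 214 called lower, and dashed lines mark a 4-fold change; circled genes are described in the text.

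To ask how the genes that tell the lineages apart in the embryo behaved, the PrE-specific and Epi-specific gene lists of the study, which it took from single-cell data of blastocysts, were counted. Of the 579 PrE genes, all of which were tested, 45 were called higher at 48 h (7.77%, against 2.51% of all genes) and 1 was called lower. At the 2-fold limit 168 were higher (29.0%, against 9.34%) and 6 lower (1.04%, against 6.99%). The median log2 fold change of the PrE genes was 0.62, against 0.00 over all genes. Together they took 11.4% ± 0.875 of the reads at 24 h (range over samples 10.5% to 12.2%) and 19.3% ± 1.98 at 48 h (17.5% to 21.1%). Of 217 Epi genes tested, 9 were called lower (4.15%, against 1.41% of all genes) and 5 higher (2.30%, near the 2.51% of all genes). At the 2-fold limit 51 were lower (23.5%, against 6.99%) and 12 higher (5.53%, against 9.34%), and the median was -0.46. Their share of reads was 2.61% ± 0.171 at 24 h and 1.71% ± 0.146 at 48 h.

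The only PrE gene called lower was *Pgam2*, the muscle form of the glycolytic enzyme phosphoglycerate mutase, with 126, 114, 160.4 and 161 at 24 h and 46.2, 33.9, 28.1 and 24.8 at 48 h (log2 fold change -2.07 ± 0.26, adjusted p = 9.1e-08). Its value was -1.94 without 48 h replicate 4 and just inside -2 without 24 h replicate 3 or 4, and the call was then lost. It was also lost in replicates 1 and 2 alone (-1.57), with a pseudocount of 5 (-1.94) and on the deposited log2 values (-1.92). The 5 Epi genes called higher were *Phlda2* and *Cdkn1c*, imprinted genes that restrain growth, *Adam19*, a metalloprotease, *Pdpn* (podoplanin), a membrane glycoprotein, and *Aass*, an enzyme of lysine breakdown. The call of *Aass* was lost with a pseudocount of 5 (1.79) and on the deposited log2 values (1.90). *Adam19* stood at 101, 98.2, 116 and 116 at 24 h and 766, 731, 1326 and 1293 at 48 h, and *Pdpn* at 31.2, 31.9, 42.6 and 54.6 at 24 h and 359.9, 317, 501 and 525 at 48 h. Neither gene had a 24 h sample above any 48 h sample.

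**Figure D2:**
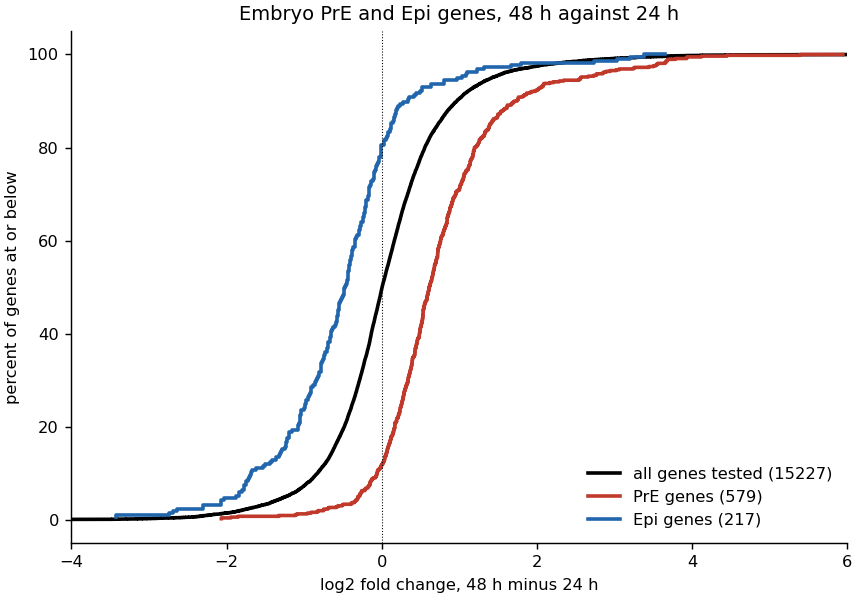
Cumulative distribution of the log2 fold change from 24 h to 48 h for the 579 PrE genes (red), the 217 tested Epi genes (blue) and all 15227 genes tested (black). The vertical axis is the percent of genes at or below each change; the red curve lies to the right of the black one (median 0.62) and the blue curve to the left (median -0.46).

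Among called genes whose groups did not overlap and with a mean of at least 100 normalized counts in the higher group, the 12 that rose most were *Cfc1*, *Timp3*, *S100g*, *Cyp26a1*, *Cemip*, *Lgals2*, *Ccnd2*, *Nrk*, *Spry3*, *Ihh*, *Selenop* and *Pth1r*, with log2 fold changes from 4.45 to 6.53. *Cfc1* (chr1:34535648-34544313, plus strand), which encodes the Nodal co-receptor Cryptic, had 0, 0, 0 and 1.63 at 24 h and 94.2, 84.8, 160.1 and 147 at 48 h. It had 2 reads in the 4 libraries at 24 h together and 469 at 48 h, and the ratio of the means was 298 (95% exact counting interval 72.4 to 2179, counting error only). *Timp3*, an inhibitor of matrix metalloproteases that is held in the extracellular matrix, had 9.61, 11.3, 14.2 and 10.6 at 24 h and 714, 769, 947 and 1038 at 48 h (log2 fold change 6.12 ± 0.28, adjusted p = 1.6e-16). *S100g*, the vitamin D-dependent calcium-binding protein calbindin-D9k, had 0, 0.626, 2.03 and 2.45 at 24 h and 93.3, 107, 158 and 156 at 48 h. *Cfc1* and *S100g* were at the detection limit in every 24 h library, and all 3 genes were many times higher in every 48 h library.

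*Cemip*, which takes part in the breakdown of hyaluronan, had 6.01, 7.51, 79.2 and 58.7 at 24 h and 663, 769, 1562 and 1684 at 48 h. Its 24 h level lay about 10 times higher in replicates 3 and 4 than in replicates 1 and 2, and the log2 fold change was 5.54 over all samples and 6.14 without 24 h replicate 3. *Lgals2*, a galactose-binding lectin, had 6.01, 6.88, 12.2 and 6.52 at 24 h and 311, 320.3, 384 and 441 at 48 h, and *Nrk*, a kinase gene on the X chromosome, had 16.8, 10.6, 8.12 and 11.4 at 24 h and 628, 659, 332 and 360.2 at 48 h. *Selenop*, the secreted selenium carrier, had 10.8, 9.39, 4.06 and 4.89 at 24 h and 263, 258, 138 and 149.6 at 48 h. The rule that named these genes required that the groups did not overlap. *Spry3*, of the Sprouty family of receptor tyrosine kinase antagonists, had a log2 fold change of 5.14 ± 0.36.

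The 12 that fell most were *S100a6*, *Nt5e*, *Ccnd1*, *Ffar3*, *Fam25c*, *Lefty2*, *Lama3*, *Tnnt3*, *Slfn9*, *Nupr1*, *Fut9* and *Pcolce2*, with log2 fold changes from -3.89 to -2.88. *S100a6* (calcyclin, a calcium-binding protein) had 622, 584, 662 and 724 at 24 h and 57.5, 60.3, 27.3 and 35.1 at 48 h. *Nt5e*, which encodes CD73, the cell-surface enzyme that makes adenosine from AMP, had 265, 255, 164 and 169.6 at 24 h and 26.4, 43.3, 9.68 and 5.16 at 48 h. *Nupr1*, a stress-responsive chromatin protein, had 464, 429, 128 and 150 at 24 h and 35.8, 30.1, 28.1 and 22.7 at 48 h. *Fut9*, the fucosyltransferase that makes the SSEA-1 (Lewis X) antigen of ES cells, had 114, 123, 79.2 and 88.9 at 24 h and 16.96, 26.4, 7.04 and 7.22 at 48 h. The 24 h levels of *Nupr1* and *Nt5e* were higher in replicates 1 and 2 than in replicates 3 and 4.

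Among the called genes, 69 of the 382 had at most 3 reads in each 24 h library, and 51 of the 214 had at most 3 reads in each 48 h library. Of these, 6 and 2 had no read at all in the lower group. The 3 most abundant at 48 h of the former were *Cfc1*, *S100g* and *Cyp26a1*. The 3 most abundant at 24 h of the latter were *Mlana*, a melanosome protein, *Ptafr*, the receptor of platelet-activating factor, and *Krtdap*, a keratinocyte protein. *Mlana* had 43.2, 45.7, 26.4 and 32.6 at 24 h and 0, 0, 2.64 and 1.03 at 48 h, and *Ptafr* had 24.02, 45.7, 46.7 and 43.2 at 24 h and 1.88, 3.77, 0.880 and 0 at 48 h. *Ptafr* had a mean of 832 normalized counts at 16 h, so most of its decline came before this interval.

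**Figure D3:**
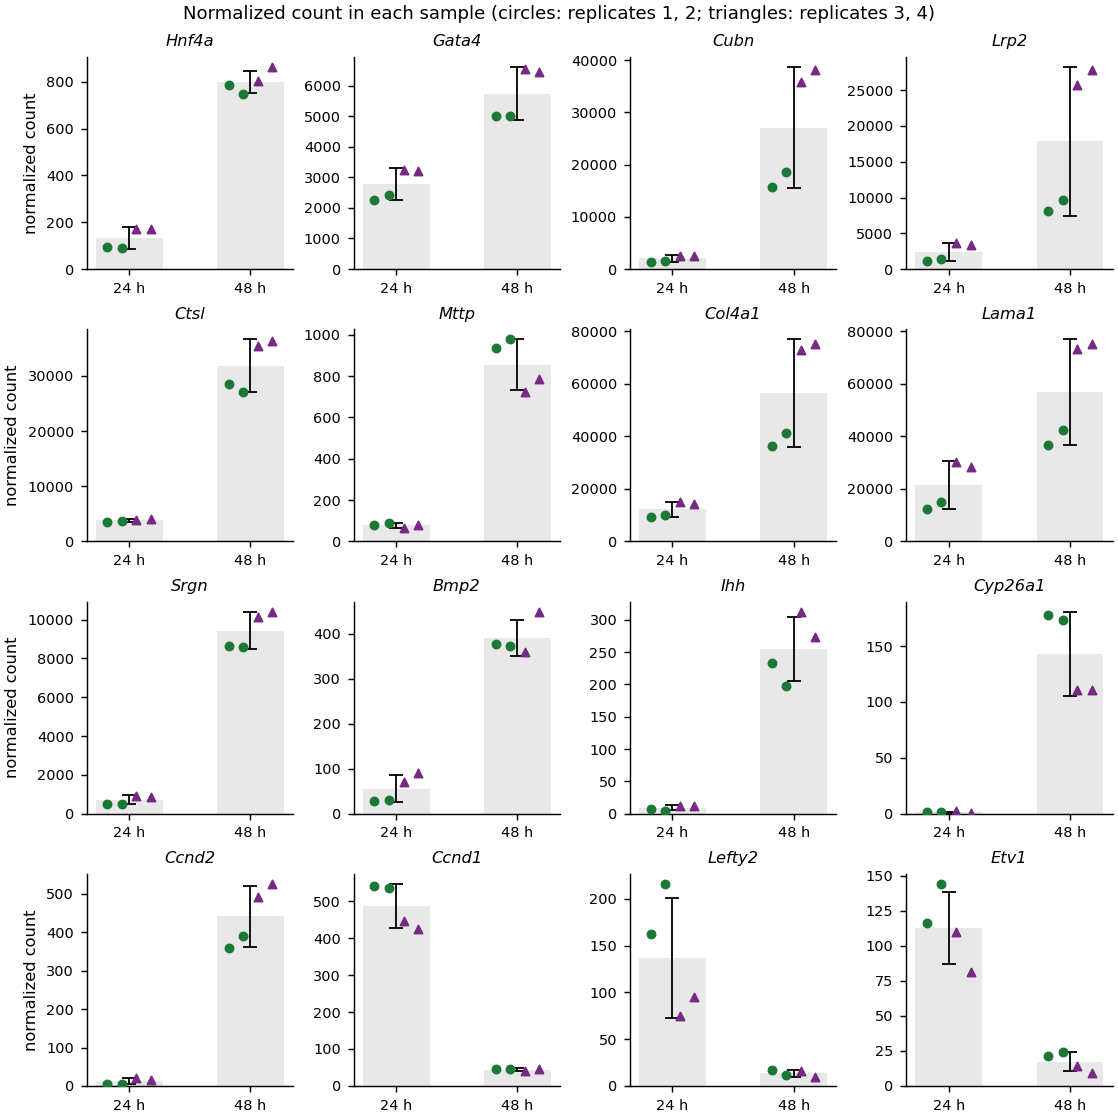
Normalized count of 16 genes in each of the 8 samples. Grey bars are means and error bars SD (n = 4), circles are replicates 1 and 2, and triangles replicates 3 and 4. Each axis starts at 0. The 16 genes are among those described in the text and most were called, so the separation of the groups here largely follows from that choice.

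None of the GATA and SOX factors that build the PrE state was called at 4-fold. The *Gata6* row of the annotation, whose product starts the programme, had 864, 890.5, 877 and 1019 at 24 h and 1049, 1044, 1323 and 1425 at 48 h (log2 fold change 0.40 ± 0.15, adjusted p = 0.031). *Gata4*, its relative and target, was higher at the 2-fold limit, with 2254, 2422, 3239 and 3215 at 24 h and 4994, 4991, 6527 and 6439.9 at 48 h (log2 fold change 1.05 ± 0.30, adjusted p = 0.0046). *Sox17* (log2 fold change 0.87 ± 0.29, adjusted p = 0.015) was higher by less than 2-fold, while *Sox7* (0.27 ± 0.35, adjusted p = 0.53) and *Foxa2* (0.52 ± 0.32, adjusted p = 0.18) did not pass the test. With the replicate number as a block *Foxa2* had an adjusted p = 0.0925. A separate row for the *Gata6* transgene had 30.03, 21.9, 85.3 and 66.05 at 24 h and 81.03, 60.3, 94.1 and 90.8 at 48 h (log2 fold change 0.85 ± 0.31, adjusted p = 0.021). The transgene carries the coding sequence, so coding reads of the endogenous and transgenic messages cannot be fully told apart.

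In the list of endoderm transcription factors, 21 of 25 were tested, and 1 was called higher and 1 lower (4.76% each, against 2.51% and 1.41% of all genes). At the 2-fold limit 7 were higher (33.3%, against 9.34%) and 3 lower (14.3%, against 6.99%), with a median of 0.61. The factor called higher was *Hnf4a* (chr2:163506808-163572910, plus strand), the nuclear receptor that drives genes of the absorptive and secretory visceral endoderm. It had 92.5, 90.1, 173 and 172 at 24 h and 787, 748, 804 and 862 at 48 h (log2 fold change 2.66 ± 0.38, adjusted p = 1.2e-06). Its mean was 10.4 at 16 h, reached its highest value of the time course at 48 h (800.1) and stood at 335 at 96 h. The factor called lower was *Foxa1*, with 16.8, 20.7, 26.4 and 26.9 at 24 h and 4.71, 3.77, 1.76 and 5.16 at 48 h (log2 fold change -2.33 ± 0.46), and it stayed a low-abundance message at both times. Its call was lost in replicates 1 and 2 alone (-1.91), with a pseudocount of 5 (-1.65) and on the deposited log2 values (-1.70). Members that changed between 2-fold and 4-fold, here and in the lists below, were named after their values were seen, among them the homeobox gene *Hhex* (higher, 1.32 ± 0.21), the nuclear receptor gene *Nr5a2* (lower, -1.46 ± 0.26) and the repressor gene *Prdm1* (lower, -1.14 ± 0.32).

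Because *Hnf4a* was the 1 regulator of this list called higher, its upstream promoter is shown, with that of *Lgals2*, among the 12 largest rises. The 300 bases run from 250 before to 50 after the annotated start (RefSeq, GRCm38.p6, gene strand). Capitals mark matches on either strand to AGATAA, which GATA factors bind. The *Hnf4a* promoter is chr2:163506607-163506906 on the plus strand, and that of *Lgals2* is chr15:78855480-78855779 on the minus strand.
Hnf4a upstream promoter: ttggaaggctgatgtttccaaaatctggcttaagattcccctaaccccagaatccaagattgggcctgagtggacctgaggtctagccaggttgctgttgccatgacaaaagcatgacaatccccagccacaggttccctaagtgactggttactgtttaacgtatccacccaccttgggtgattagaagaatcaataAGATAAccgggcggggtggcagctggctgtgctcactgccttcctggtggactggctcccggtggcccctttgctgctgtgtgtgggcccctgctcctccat
Lgals2: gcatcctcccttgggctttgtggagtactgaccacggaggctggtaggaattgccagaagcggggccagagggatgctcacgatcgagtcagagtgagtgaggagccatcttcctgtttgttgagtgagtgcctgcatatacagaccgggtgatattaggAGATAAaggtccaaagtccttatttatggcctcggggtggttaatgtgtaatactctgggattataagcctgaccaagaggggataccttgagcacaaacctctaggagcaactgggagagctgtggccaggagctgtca
The match began 52 bases before the start in *Hnf4a* and 90 bases before it in *Lgals2*. The other annotated *Hnf4a* promoter held none. Of the 13653 promoters of tested genes with an entry, 6.54% held the motif, against 8.63% of the 417 promoters of genes called higher and 7.14% of the 182 promoters of genes called lower. Promoters were matched for 290 of the 382 and 144 of the 214 genes.

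Nearly all tested genes of the apical endocytosis and lysosome list were higher at 48 h at an adjusted p below 0.1, and none was lower. Of 29 tested members of the endocytosis and lysosome list, 7 were called higher and none lower, against 2.51% and 1.41% of all genes. At the 2-fold limit 14 were higher (48.3%, against 9.34%) and none lower (against 6.99%). At an adjusted p below 0.1 with no fold limit 27 were higher and none lower, against 4538 and 4226 of all 15227 genes. The median log2 fold change was 1.00. The list's genes took 0.506% ± 0.0752 of the reads at 24 h and 1.90% ± 0.395 at 48 h.

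*Cubn* (chr2:13276338-13491813, minus strand), which encodes cubilin, the receptor for vitamin B12 with intrinsic factor and for many proteins, had 1414, 1634, 2577 and 2474 at 24 h and 15660, 18603, 35811 and 38175 at 48 h (log2 fold change 3.68 ± 0.35, adjusted p = 7.6e-10). Its partner *Amn* (amnionless), which anchors cubilin at the apical membrane, had 137, 166, 296 and 294 at 24 h and 666, 708, 1253 and 1088 at 48 h (log2 fold change 2.08 ± 0.40). *Lrp2*, the multiligand receptor megalin, had 1152, 1351, 3611 and 3294 at 24 h and 8147, 9608, 25762 and 27788 at 48 h (log2 fold change 2.89 ± 0.46, adjusted p = 5.8e-06). *Dab2*, the clathrin adaptor for megalin, had 1829, 1887, 4522 and 4336 at 24 h and 17629, 18178, 23804 and 24409 at 48 h (log2 fold change 2.86 ± 0.37). All 4 were higher in replicates 3 and 4 than in replicates 1 and 2 at both times, and every 48 h sample stood above every 24 h sample. The call of *Amn* was lost without 24 h replicate 1 or 2 or 48 h replicate 3 or 4 (values from 1.87 to 1.99).

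Of the lysosomal proteases, *Ctsl* (cathepsin L) had 3469, 3707, 3891 and 4124 at 24 h and 28552, 27086, 35430.1 and 36386 at 48 h (log2 fold change 3.06 ± 0.08, adjusted p = 5.1e-22). The lysosomal asparaginyl protease gene *Lgmn*, not a member of the list and named after its values were seen, had 1003, 1126, 1399 and 1421 at 24 h and 6496, 6278, 8043 and 8208 at 48 h. *Ctsl* varied less between replicates than the receptors did. *Slc34a2*, an apical sodium-phosphate cotransporter, had 32.4, 35.7, 32.5 and 44.03 at 24 h and 279.8, 273, 305 and 332 at 48 h, and *Pdzk1*, a scaffold of apical transporters, 31.2, 28.8, 34.5 and 30.99 at 24 h and 119, 119, 191 and 175 at 48 h. *Lipa*, the lysosomal acid lipase, was just under the 4-fold limit (log2 fold change 2.00 ± 0.24). *Lrpap1*, the chaperone of megalin, was already abundant at 24 h and had 7666, 8011, 10093 and 10006 at 24 h and 20854, 20277, 27287 and 27156 at 48 h. *Myo6* and *Myo7a*, unconventional myosins of the actin-rich cell apex, were on the embryo PrE list and were called higher, at log2 fold changes of 3.50 ± 0.20 and 2.94 ± 0.23.

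**Figure D4:**
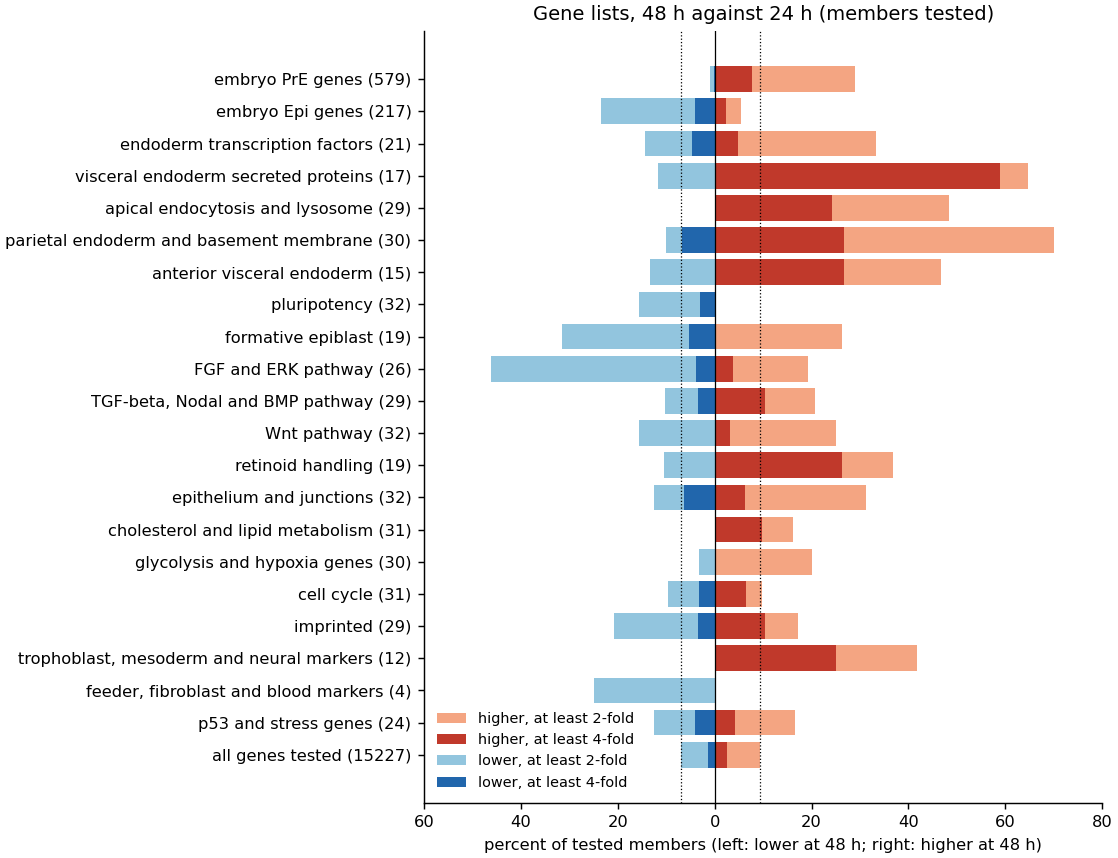
Percent of the tested members of each gene list that were higher (right) or lower (left) at 48 h, at an adjusted p below 0.1. Dark bars are changes of at least 4-fold and light bars of at least 2-fold, the number tested is in brackets, and dotted lines mark the 2-fold percentages of all genes tested (9.34% higher, 6.99% lower).

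Some members of the visceral endoderm secreted protein list were called higher, and others were hardly detected at either time. The list took 0.161% ± 0.00967 of the reads at 24 h (0.151% to 0.173%) and 0.178% ± 0.0173 at 48 h (0.162% to 0.194%). Of 32 listed genes 17 were tested, and of these 10 were called higher and none lower, against 2.51% and 1.41% of all genes, with a median of 2.31. The other 15, *Afp*, *Alb*, *Apoa1* and *Apob* among them, did not pass the expression filter. A gene that passed could do so through its 48 h level, so these counts are not a share of the whole list. The same holds for every other list with untested members. *Mttp*, which loads lipid onto apolipoprotein B, had 80.5, 89.5, 62.95 and 78.3 at 24 h and 938, 978, 721 and 785 at 48 h (log2 fold change 3.44 ± 0.21, adjusted p = 5.2e-14). *Apom*, an apolipoprotein of high-density particles, had 43.2, 41.9, 73.1 and 49.7 at 24 h and 436, 407, 585 and 571 at 48 h, and *Spink1*, a secreted trypsin inhibitor, 215, 199, 219 and 244 at 24 h and 1430.3, 1426, 1368 and 1311 at 48 h. *Ctsh* (cathepsin H) had 4.80, 13.1, 6.09 and 6.52 at 24 h and 147, 117, 111 and 119.7 at 48 h, and *Pla2g12b*, a secreted phospholipase relative, had 109, 85.7, 87.3 and 65.2 at 24 h and 504, 467, 545 and 526 at 48 h. For each of these 5 genes the lowest 48 h sample was several times the highest 24 h sample. All 5 were named because they were called at 4-fold, so such a gap is part of that choice.

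The coagulation factor gene *F2* (prothrombin) had 13.2, 7.51, 4.06 and 4.89 at 24 h and 91.4, 82.9, 80.9 and 80.5 at 48 h. *Fgb*, the fibrinogen beta chain, had 3.60, 3.13, 4.06 and 8.97 at 24 h and 47.1, 33.9, 20.2 and 15.5 at 48 h. At 48 h *Fgb* was higher in replicates 1 and 2 than in replicates 3 and 4. Its log2 fold change was 2.31 ± 0.31 over all samples, and it was not called in replicates 3 and 4 alone (1.40). The call of *Fgb* was also lost with a pseudocount of 5 (1.72) and on the deposited log2 values (1.75). *Ttr* (transthyretin, the carrier of thyroid hormone and retinol-binding protein) had 1 read at 24 h and 84 at 48 h in the 4 libraries together, with 0, 0, 2.03 and 0 at 24 h and 15.1, 20.7, 26.4 and 27.9 at 48 h (ratio of means 44.3, 95% exact counting interval 16.5 to 3767). Its 48 h mean was only 22.5. *Rbp4*, the plasma retinol-binding protein, was lower still, with 4.80, 0.626, 0 and 1.63 at 24 h and 10.4, 5.65, 8.80 and 8.26 at 48 h, and its call was lost without 24 h replicate 2 or 3 or 48 h replicate 1 or 3 (values from 1.64 to 1.99). Moving the other way without being called, *Cpn1* (carboxypeptidase N) had 2707, 2598, 2461 and 2356 at 24 h and 696, 684, 627 and 619 at 48 h (log2 fold change -1.94 ± 0.26), and *Apoa2* had a log2 fold change of -1.69 ± 0.24. *Apoe* was abundant and did not pass the test (0.21 ± 0.16, adjusted p = 0.28), but did with the replicate number as a block (adjusted p = 0.0226).

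Most tested genes of the basement membrane and parietal endoderm list were higher at 48 h, several of them from high levels. Of 30 tested members 8 were called higher (26.7%, against 2.51% of all genes) and 2 lower (6.67%, against 1.41%). With a 2-fold limit 21 were higher (70%, against 9.34%) and 3 lower (10%, against 6.99%), and the median was 1.40. The list took 1.98% ± 0.441 of all reads at 24 h (1.51% to 2.40%) and 4.99% ± 1.19 at 48 h (3.84% to 6.03%). The type IV collagen chains *Col4a1* (chr8:11198423-11312826, minus strand) and *Col4a2* (chr8:11312805-11449287, plus strand) lie head to head. *Col4a1* had 9392, 10181, 15054 and 14094 at 24 h and 36331, 41188, 73013 and 75092 at 48 h (log2 fold change 2.16 ± 0.19, adjusted p = 9.2e-11), and *Col4a2* had 3664, 4275, 7162 and 6449 at 24 h and 13387, 15229, 32328 and 32686 at 48 h (log2 fold change 2.05 ± 0.24). Both were higher in replicates 3 and 4 at both times. The call of *Col4a2* was lost without 24 h replicate 1 or 2 or 48 h replicate 3 or 4 (values from 1.85 to 1.96), and in replicates 1 and 2 alone *Col4a1* was at 1.98.

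The laminin-111 chains were under the 4-fold limit. *Lama1* had 12292, 14807, 30266 and 28282 at 24 h and 36506, 42289, 72967 and 74939 at 48 h (log2 fold change 1.44 ± 0.22), and *Lamb1* (1.35 ± 0.11) and *Lamc1* (0.92 ± 0.22) were also higher. So were *Sparc* (1.74 ± 0.22), a collagen-binding matrix protein, and *Serpinh1* (1.61 ± 0.12), the collagen chaperone HSP47. Among collagen-modifying enzymes, the prolyl hydroxylases *P3h2* and *P4ha2* had log2 fold changes of 2.77 ± 0.46 and 2.21 ± 0.73, and *Loxl2*, a lysyl oxidase that crosslinks collagen IV, had 25.2, 32.5, 18.3 and 13.05 at 24 h and 255, 226, 244 and 267 at 48 h. The call of *P4ha2* was lost without 24 h replicate 1 (1.98) or 2 (1.99) and in replicates 3 and 4 alone (1.85). It was also lost, on its adjusted p, when replicates 1 and 2 and replicates 3 and 4 were averaged (2.21). *Pth1r*, the receptor of parathyroid hormone-related protein that marks parietal endoderm, had 96.1, 113, 227 and 227 at 24 h and 2900.2, 2857, 4054 and 3875 at 48 h (log2 fold change 4.45 ± 0.34, adjusted p = 6.7e-12). *Srgn* (serglycin, a proteoglycan) had 509, 518, 932 and 881 at 24 h and 8619, 8613, 10114 and 10405 at 48 h, and *Thbd* (thrombomodulin) had 2.40, 4.38, 0 and 1.63 at 24 h and 16.02, 15.1, 41.3 and 42.3 at 48 h, low at both times beside its 96 h mean of 632.

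A few matrix and filament genes were lower at 48 h. *Col18a1*, a basement membrane collagen, had 906, 990, 639.7 and 566 at 24 h and 174, 168, 145 and 128 at 48 h (log2 fold change -2.30 ± 0.26, adjusted p = 1.3e-08). *Vim*, the intermediate filament vimentin, which mesenchymal cells and parietal endoderm carry, had 5309.9, 5281, 7560.4 and 7573 at 24 h and 1463, 1558, 1407 and 1411 at 48 h (log2 fold change -2.12 ± 0.21, adjusted p = 1.4e-09), and was at -1.81 in replicates 1 and 2 alone. *Lama3*, the laminin alpha-3 chain of epithelial laminin-332, was among the 12 largest falls with 209, 186, 97.5 and 126 at 24 h and 19.8, 13.2, 20.2 and 11.4 at 48 h. *Lama5* was lower by less than 4-fold (-1.31 ± 0.20), as was *Itga6* (-1.92 ± 0.24), a laminin receptor chain. The laminin genes thus moved in both directions, with *Lama1*, *Lamb1* and *Lamc1* higher and *Lama3* and *Lama5* lower.

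**Figure D5:**
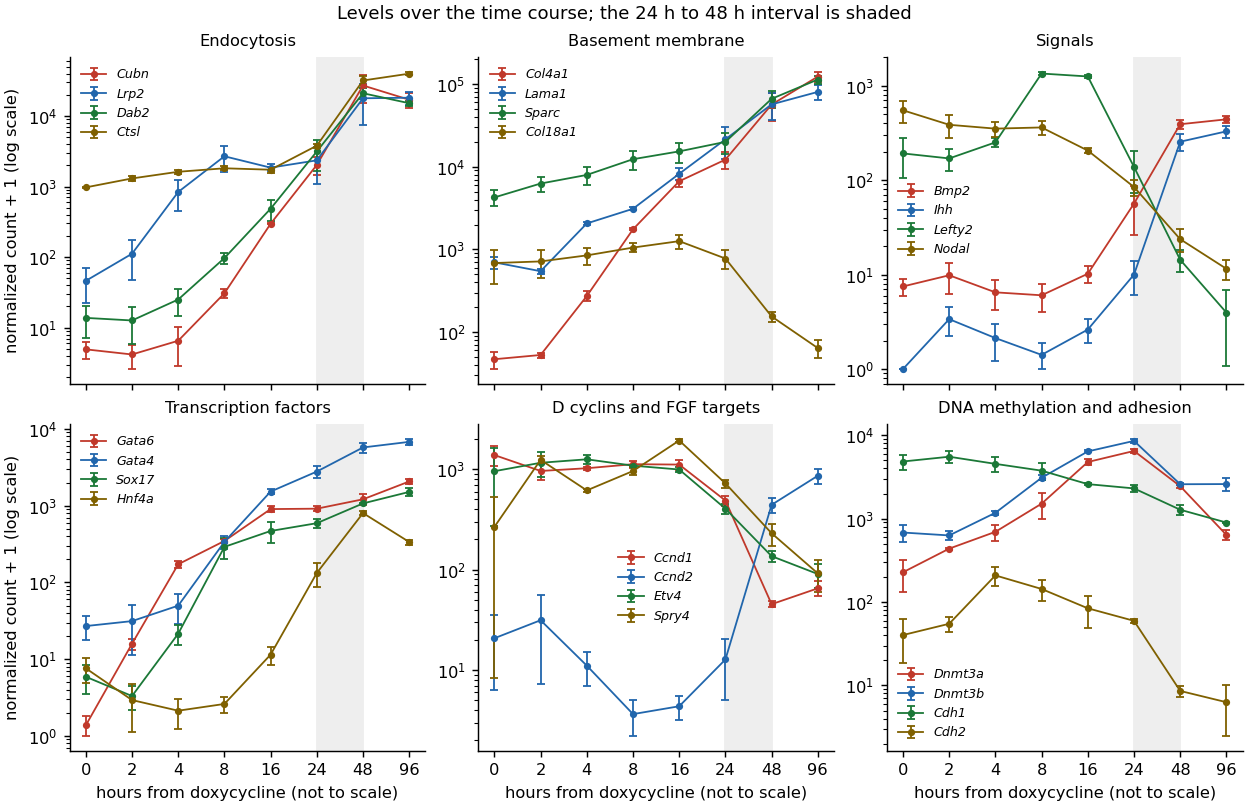
Mean normalized count + 1 on a log scale against time from doxycycline (0 to 96 h, steps not drawn to scale) for 24 genes in 6 groups. Points are means of 4 samples, error bars SD (cut at 0), and the shaded band is the 24 h to 48 h interval, in which for example *Ihh* and *Ccnd2* rose while *Lefty2* and *Ccnd1* fell.

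In the TGF-beta, Nodal and BMP list, 3 of 29 tested genes were called higher (10.3%, against 2.51% of all genes) and 1 lower (3.45%, against 1.41%), with a median of 0.46. *Bmp2*, a ligand made by visceral endoderm, had 28.8, 31.3, 71.1 and 90.5 at 24 h and 377, 373, 359.8 and 449 at 48 h (log2 fold change 2.95 ± 0.31, adjusted p = 4.7e-09). *Bmp7*, another ligand, was low, with 6.01, 6.88, 0 and 4.89 at 24 h and 32.98, 24.5, 11.4 and 11.4 at 48 h. Its call was lost without 24 h replicate 3 (1.47) or 48 h replicate 1 (1.89). The third gene called higher was *Nog* (noggin, a BMP antagonist), which had at most 10.4 normalized counts in any 48 h sample and a mean of 224 at 96 h. *Bmp7* and *Nog* both lost their calls with a pseudocount of 5 (1.39 and 1.15) and on the deposited log2 values (1.59 for each). Only 1 gene of this list was then called higher. *Id1* (1.04 ± 0.30) and *Smad6* (1.57 ± 0.38), BMP target genes, were higher at the 2-fold limit.

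On the Nodal side, *Lefty2*, a Nodal antagonist and target, had 162, 216, 75.1 and 94.6 at 24 h and 16.96, 11.3, 15.8 and 9.29 at 48 h (log2 fold change -3.18 ± 0.39, adjusted p = 8.5e-08). *Nodal* itself had 90.1, 103, 69.04 and 71.8 at 24 h and 18.8, 28.3, 15.8 and 27.9 at 48 h (log2 fold change -1.86 ± 0.22). Their 16 h means were 1251 and 205, so the level of both was lower at 24 h than at 16 h. *Lefty1* was low and did not pass the test (-0.37 ± 0.32, adjusted p = 0.35). In the anterior visceral endoderm list 4 of 15 tested genes were called higher (26.7%, against 2.51% of all genes) and none lower. At the 2-fold limit 7 were higher (46.7%, against 9.34%) and 2 lower (13.3%, against 6.99%), with a median of 0.33. The 4 called were *Cfc1*, *Cyp26a1*, *Bmp2* and the homeobox gene *Hesx1*, which had 72.1, 63.8, 87.3 and 85.6 at 24 h and 318, 311, 359 and 325 at 48 h. Without 24 h replicate 2 the value of *Hesx1* lay just under 2 and the call was lost. *Cer1* (Cerberus, a secreted antagonist of Nodal) was not tested and had at most 7 reads in a 24 h library and 2 in a 48 h library. *Ihh* (Indian hedgehog), a ligand that visceral endoderm sends to neighbouring tissue, had 7.21, 4.38, 12.2 and 12.2 at 24 h and 233, 198, 312 and 273 at 48 h (log2 fold change 4.75 ± 0.35, adjusted p = 3.7e-12).

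Of the gene lists examined, the FGF and ERK list had the highest share of members that were lower at the 2-fold limit. Of 26 tested genes 12 were lower (46.2%, against 6.99% of all genes) and 5 higher (19.2%, against 9.34%) at the 2-fold limit. At 4-fold 1 was called lower and 1 higher (3.85% each, against 1.41% and 2.51%), and the median was -0.66. The genes that fell included readouts and feedback inhibitors of ERK signalling. *Etv1*, an ETS factor, had 117, 144, 109.7 and 81.5 at 24 h and 21.7, 24.5, 14.1 and 9.29 at 48 h (log2 fold change -2.69 ± 0.20, adjusted p = 4.2e-12). Its relatives *Etv4* and *Etv5* had log2 fold changes of -1.57 ± 0.31 and -1.63 ± 0.14. The inhibitors *Spry4* (-1.68 ± 0.48), *Spry1* (-1.36 ± 0.28), *Spry2* (-1.06 ± 0.09) and *Spred1* (-1.76 ± 0.18) and the ERK phosphatase *Dusp6* (-1.49 ± 0.46) were all lower, whereas *Spry3* of the same family was among the 12 largest rises. *Spry4* was lower in every 48 h sample than in any 24 h sample, with 727, 809, 654 and 699 at 24 h and 278, 281, 177 and 183 at 48 h.

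The FGF receptors moved in both directions. *Fgfr1* had 300.3, 268, 238 and 248 at 24 h and 149, 177, 100.3 and 92.9 at 48 h (log2 fold change -1.06 ± 0.22). *Fgfr4* had 18.02, 21.3, 32.5 and 37.5 at 24 h and 151, 185, 261 and 224 at 48 h (log2 fold change 2.89 ± 0.31, adjusted p = 5.3e-09), and *Fgfr3* had 185, 148, 232 and 203 at 24 h and 407, 439, 618 and 587 at 48 h (log2 fold change 1.41 ± 0.34). The ligand *Fgf3* was higher as well (1.12 ± 0.20). *Pdgfra*, the PDGF receptor used to mark PrE, was abundant in both groups, with 6495, 6904, 8334 and 8314 at 24 h and 7865, 8202, 9319 and 9934 at 48 h, and did not pass the test (log2 fold change 0.24 ± 0.14, adjusted p = 0.16). In the Wnt list 1 of 32 tested genes was called higher, the receptor-degrading ligase *Rnf43*, with 1.20, 0, 2.03 and 1.63 at 24 h and 14.1, 13.2, 11.4 and 8.26 at 48 h, and none lower. This 3.12% lay near the 2.51% of all genes, and the call of *Rnf43* was lost in replicates 3 and 4 alone (1.93), with a pseudocount of 5 (1.43) and on the deposited log2 values (1.74). At the 2-fold limit 8 were higher (25%, against 9.34%) and 5 lower (15.6%, against 6.99%), with a median of -0.02. The Wnt target *Axin2* was lower (-1.82 ± 0.18) and the Wnt acyltransferase *Porcn* higher (1.93 ± 0.15), both by less than 4-fold.

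Several genes that import, carry and clear retinoids were higher. Of 19 tested retinoid genes 5 were called higher (26.3%, against 2.51% of all genes) and none lower. A gene could pass the filter through its 48 h or 96 h level. The 5 became 4 with the filter set on the 8 samples or with a pseudocount of 5. Among genes with a mean of at least 50 normalized counts only 2 were called. With a 2-fold limit 7 were higher (36.8%, against 9.34%) and 2 lower (10.5%, against 6.99%), and the median was 0.57. *Cyp26a1* (chr19:37697798-37701536, plus strand), the enzyme that breaks down retinoic acid, had 1.20, 1.25, 2.03 and 0.815 at 24 h and 178, 173, 111 and 110.4 at 48 h (log2 fold change 5.94 ± 0.26, adjusted p = 7.5e-17). It had a mean of 33.3 at 16 h and 405 at 96 h, so its 24 h level was a trough in the time course. *Stra6*, the cell-surface receptor for retinol-binding protein, had 3 reads at 24 h and 239 at 48 h in the 4 libraries together, with 1.20, 0.626, 0 and 0.815 at 24 h and 21.7, 22.6, 102 and 90.8 at 48 h (ratio of means 89.7, 95% exact counting interval 30.2 to 437). Its 48 h level was far higher in replicates 3 and 4. *Dhrs3*, which reduces retinaldehyde to retinol, had 1.20, 3.13, 0 and 0.815 at 24 h and 17.9, 22.6, 22.9 and 21.7 at 48 h. The others called were *Ttr* and *Rbp4*, and the call of *Rbp4* was lost under several alternatives given above. *Cyp26b1* (1.79 ± 0.50) and the retinoic acid-making *Aldh1a1* (1.46 ± 0.49) were higher by less than 4-fold, and *Aldh1a3* (-1.42 ± 0.36) and *Crabp2* (-1.60 ± 0.48), which carries retinoic acid to its receptor, were lower.

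The *Cyp26a1* promoter is shown since this gene had the highest fitted fold change of the retinoid list and retinoic acid receptors are known to act through its promoter. It was searched for the direct repeat bound by these receptors, 2 copies of the half-site in the same direction with 5 bases between them, on either strand. The promoter is chr19:37697558-37697857 (RefSeq, GRCm38.p6, plus strand), and capitals mark the match.
Cyp26a1: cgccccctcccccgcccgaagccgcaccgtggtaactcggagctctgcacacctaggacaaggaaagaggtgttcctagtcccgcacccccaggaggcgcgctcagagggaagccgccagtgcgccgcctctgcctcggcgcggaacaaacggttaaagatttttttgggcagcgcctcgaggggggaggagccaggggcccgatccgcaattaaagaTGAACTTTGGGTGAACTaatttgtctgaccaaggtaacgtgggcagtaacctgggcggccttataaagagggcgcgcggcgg
The repeat began 32 bases before the start. It was found in 5 of the 13653 promoters of tested genes (0.0366%) and in 1 of the 417 promoters of genes called higher, which was this one.

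Of 32 pluripotency genes tested, 1 was called lower (3.12%, against 1.41% of all genes) and none higher. With a 2-fold limit 5 were lower (15.6%, against 6.99%) and none higher. At an adjusted p below 0.1 with no limit on the fold, 16 were lower and 5 higher, against 4226 and 4538 of all 15227 genes, and the median was -0.36. The list took 0.844% ± 0.00576 of the reads at 24 h and 0.663% ± 0.0282 at 48 h. *Pou5f1* (OCT4) had 5665, 5362, 5459 and 5228 at 24 h and 6413, 6419.7, 5971 and 5859.9 at 48 h (log2 fold change 0.18 ± 0.10, adjusted p = 0.13), *Nanog* had 204, 219, 116 and 116 at 24 h and 308, 262, 165 and 144 at 48 h (0.42 ± 0.22, adjusted p = 0.12), and *Sox2* had 253, 223, 169 and 148 at 24 h and 177, 251, 105 and 102 at 48 h (-0.39 ± 0.21, adjusted p = 0.12). None of these 3 passed the test without pairing, and the groups overlapped for *Nanog* and *Sox2* but not for *Pou5f1*. *Nanog* and *Pou5f1* were higher at 48 h in 4 of 4 pairs of samples with the same replicate number, and *Sox2* was lower in 3. With the replicate number as a block, *Pou5f1* (adjusted p = 0.025) and *Sox2* (adjusted p = 0.0207) passed the test, and *Nanog* did not (adjusted p = 0.106). Among naive-state factors *Tfcp2l1* had 2014, 2096, 2289 and 2265 at 24 h and 1253, 1255, 805 and 843 at 48 h (log2 fold change -1.09 ± 0.18). The gene called lower was *Rex2*, with 151, 163, 40.6 and 121 at 24 h and 15.1, 37.7, 18.5 and 24.8 at 48 h. Its call was lost without 24 h replicate 1 or 2 or 48 h replicate 1 (values from -1.99 to -1.96), and whether it shares reads with similar zinc-finger genes was not tested, so its level is uncertain.

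In the list of formative epiblast genes 1 of 19 tested genes was called lower (5.26%, against 1.41% of all genes) and none higher. With a 2-fold limit 6 were lower (31.6%, against 6.99%) and 5 higher (26.3%, against 9.34%). The de novo DNA methyltransferase genes were lower at the 2-fold limit. *Dnmt3b* had 8214, 8059, 8779 and 9189.6 at 24 h and 2656, 2578, 2500 and 2609 at 48 h (log2 fold change -1.73 ± 0.11, adjusted p = 2.1e-13), and *Dnmt3a* had 6386, 6187, 6504 and 6859 at 24 h and 2343, 2423, 2477 and 2553 at 48 h (log2 fold change -1.40 ± 0.21, adjusted p = 1.9e-06). At 0 h their means were 681 and 226, below the 48 h levels. The gene called lower was *Cdh2* (N-cadherin), with 57.7, 61.95, 58.9 and 55.4 at 24 h and 7.54, 9.42, 6.16 and 7.22 at 48 h (log2 fold change -2.80 ± 0.38, adjusted p = 3.5e-07).

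Among epithelial genes 2 of 32 tested were called higher and 2 lower (6.25% each, against 2.51% and 1.41% of all genes). At the 2-fold limit 10 were higher (31.25%, against 9.34%) and 4 lower (12.5%, against 6.99%). The claudins *Cldn6* and *Cldn7* seal tight junctions. *Cldn6* had 74.5, 115, 44.7 and 38.3 at 24 h and 736, 759, 747 and 672 at 48 h. *Cldn7* had 19.2, 38.2, 0 and 7.34 at 24 h and 118, 143, 90.6 and 76.4 at 48 h. Leaving out a sample moved its log2 fold change from 3.54 ± 0.66 to 4.25 without 24 h replicate 2 and 2.48 without 24 h replicate 3. The genes called lower were *Cdh2* and *Vim*. *Cdh1* (E-cadherin) was lower by less than 2-fold (log2 fold change -0.86 ± 0.15, adjusted p = 1.3e-05). The simple-epithelium keratins *Krt8* (1.34 ± 0.21) and *Krt18* (1.51 ± 0.15) were higher.

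In the cell cycle list the D cyclins moved in opposite directions. *Ccnd1* (chr7:144929931-144939925, minus strand) had 540.5, 535, 447 and 425 at 24 h and 45.2, 47.1, 39.6 and 45.4 at 48 h (log2 fold change -3.42 ± 0.13, adjusted p = 5e-18), and *Ccnd2* (chr6:127125162-127152193, minus strand) had 4.80, 5.63, 20.3 and 16.3 at 24 h and 359, 390, 492 and 525 at 48 h (log2 fold change 5.32 ± 0.53, adjusted p = 1.9e-09). *Cdkn1c* (p57), an imprinted inhibitor of cyclin-dependent kinases, had 33.6, 25.03, 18.3 and 20.4 at 24 h and 259, 281, 151 and 146 at 48 h (log2 fold change 3.03 ± 0.48, adjusted p = 4.8e-06). *Cdkn1a* (p21) was higher (1.28 ± 0.23) and *Myc* lower (-1.43 ± 0.32) by less than 4-fold. *Ccnd1*, *Ccnd2* and *Cdkn1c* were the only called genes of 31 tested, whose median was -0.03. The 2 higher made up 6.45% and the 1 lower 3.23%, against 2.51% and 1.41% of all genes. With a 2-fold limit 3 were higher and 3 lower (9.68% each, against 9.34% and 6.99%).

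Of 29 tested imprinted genes 3 were called higher (10.3%, against 2.51% of all genes) and 1 lower (3.45%, against 1.41%), with a median of 0.01. With a 2-fold limit 5 were higher (17.2%, against 9.34%) and 6 lower (20.7%, against 6.99%). *Phlda2*, a growth-restraining gene next to *Cdkn1c*, had 36.03, 40.1, 18.3 and 7.34 at 24 h and 440, 411, 190 and 174 at 48 h, and *Peg3*, a zinc-finger gene, had 431, 513, 502 and 474 at 24 h and 2510.1, 2851, 3027 and 3215 at 48 h (log2 fold change 2.59 ± 0.10, adjusted p = 6.1e-18). *Plagl1*, a growth-suppressing zinc-finger gene, was lower, with 24.02, 29.4, 26.4 and 30.99 at 24 h and 3.77, 5.65, 8.80 and 3.10 at 48 h. Its call was lost with a pseudocount of 5 (-1.69) and on the deposited log2 values (-1.71). *H19*, a non-coding RNA, had 692, 658, 571 and 560.2 at 24 h and 1110, 1093, 508 and 469.6 at 48 h and did not pass the test (log2 fold change 0.25 ± 0.34, adjusted p = 0.57). It was higher at 48 h in replicates 1 and 2 and lower in replicates 3 and 4 (-0.21 in these alone). The linked growth factor gene *Igf2* had 92.5, 117, 50.8 and 59.5 at 24 h and 258, 234, 102 and 95.98 at 48 h (log2 fold change 1.03 ± 0.40).

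Of 31 cholesterol and lipid genes 3 were called higher (9.68%, against 2.51% of all genes), and none was lower even at the 2-fold limit. *Fabp3*, a fatty acid-binding protein, had 520.1, 459, 550.3 and 555 at 24 h and 3023, 2762, 3148 and 3185 at 48 h. The others called were *Abca1*, the cholesterol exporter (2.39 ± 0.31), and *Soat2*, which esterifies cholesterol (2.34 ± 0.33). Of 30 glycolysis and hypoxia genes none was called. At an adjusted p below 0.1 with no fold limit 15 were higher and 6 lower, against 4538 and 4226 of all 15227 genes. With a 2-fold limit 6 were higher (20%, against 9.34%) and 1 lower (3.33%, against 6.99%). *Bnip3*, a mitophagy gene that hypoxia induces, had 186, 171, 34.5 and 51.4 at 24 h and 478, 445, 249.8 and 189 at 48 h (log2 fold change 1.85 ± 0.44), and passed 4-fold without 24 h replicate 1 (2.22), 24 h replicate 2 (2.17) or 48 h replicate 4. *Ndrg1* (1.65 ± 0.25), *Pfkl* (1.33 ± 0.16) and the glucose transporter gene *Slc2a1* (1.02 ± 0.21) were higher at the 2-fold limit.

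Of 24 p53 and stress genes 1 was called higher and 1 lower (4.17% each, against 2.51% and 1.41% of all genes). *Jun*, a subunit of AP-1, had 21.6, 10.6, 8.12 and 8.97 at 24 h and 89.5, 138, 90.6 and 83.6 at 48 h (log2 fold change 2.997 ± 0.33, adjusted p = 1.3e-08). *Trib3*, a target of the amino acid stress response, had 494, 452, 175 and 142 at 24 h and 81.97, 88.6, 47.5 and 56.8 at 48 h (log2 fold change -2.02 ± 0.29, adjusted p = 1.1e-06). Its call was lost without 24 h replicate 1 or 2 or 48 h replicate 3 or 4 (values from -1.94 to -1.74). Other targets of that response, *Asns* (-1.25 ± 0.10), asparagine synthetase, and *Chac1* (-1.90 ± 0.42), were lower, and so was *Bcat1*, a branched-chain amino acid transaminase on the embryo Epi list, with 3333, 3189, 3448 and 3504 at 24 h and 742, 735, 831 and 892 at 48 h (log2 fold change -2.08 ± 0.09, adjusted p = 1.1e-16).

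Markers of other cell types were summed as well. The 4 trophoblast markers summed to between 20.03 and 28.4 normalized counts in the 24 h samples and between 88.8 and 145 in the 48 h samples, and the 5 mesoderm markers to between 14.4 and 24.5 and between 74.4 and 123. Nearly all of the mesoderm rise was *Kdr* (mean 9.94 at 24 h and 93.5 at 48 h), and the other mesoderm markers had few reads at both times. The 4 neural markers summed to between 215 and 322 at 24 h and between 147 and 222 at 48 h, nearly all of it *Nes* (nestin), an intermediate filament gene (log2 fold change -0.60 ± 0.17, adjusted p = 0.00453). Of the wider list of trophoblast, mesoderm and neural markers 12 of 22 were tested and 3 were called higher (25%, against 2.51% of all genes) and none lower. *Kdr*, the VEGF receptor of endothelial precursors, had 3.60, 5.63, 14.2 and 16.3 at 24 h and 65.01, 79.1, 114 and 116 at 48 h. *Cdx2* and *Gata3*, trophoblast factors, had log2 fold changes of 2.57 ± 0.50 and 2.097 ± 0.40 and means of 29.5 and 33.2 at 48 h. The calls of both were lost with a pseudocount of 5 (1.91 and 1.67) and on the deposited log2 values (1.94 and 1.67), and that of *Gata3* also under upper-quartile scaling (1.99) and in replicates 1 and 2 alone (1.95). *Hand1* was just under the limit (1.96 ± 0.49). *Mesp1* had no read in the 8 samples, *T* (Brachyury) at most 3 and *Elf5* at most 2 in any of them. Fibroblast markers summed to between 3.26 and 14.4 at 24 h and between 3.77 and 10.3 at 48 h, and the 4 blood markers with a row had no read. In the list of feeder, fibroblast and blood genes 4 of 16 were tested, and none was called. Whether the rise of *Kdr*, *Cdx2* and *Gata3* came from a few cells or from many was not tested.

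Several of these genes had begun to change in the step before, and some turned back in the step after, as the plot of levels over the time course shows. *Cubn* had a log2 fold change of 2.72 from 16 h to 24 h, 3.68 from 24 h to 48 h and -0.59 from 48 h to 96 h. *Col4a1* had 0.85, 2.16 and 1.19, and *Ccnd2* 1.37, 5.32 and 0.96. *S100a6*, the largest of the 12 falls, had -0.68, -3.89 and 1.83, and *Ccnd1* had -1.19, -3.42 and 0.51. *Hesx1* peaked at 48 h, with 2.30, 2.08 and -2.15. The neighbouring steps share samples, so these values stand side by side and are not independent of each other.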

How the data were processed

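Polyadenylated RNA of unsorted cells was sequenced from single ends after stranded library preparation. Per the study's methods and the labels, the authors' pipeline used cutadapt 2.7 for trimming, HISAT2 2.1.0 for alignment to GRCm38.p6 and, for counting per gene, featureCounts (Subread 1.6.4, GENCODE annotation). The authors deposited log2-scale values from the variance-stabilizing transformation of DESeq2. These values were inverted to normalized counts, and multiplication by each library's size factor gave whole reads for 100% of values (tolerance 0.01). Overlapping and near-identical genes may share reads. The depth of the 32 libraries was 3190108 to 12301732 reads on genes.

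Genes with at least 10 normalized counts in at least 4 of 32 samples were kept (15227 of 54233 rows). They were tested with limma 3.58.1 in R 4.3.3 on log2(normalized count + 1), with all 32 samples and a factor for the 8 time points, a mean-variance trend and Benjamini-Hochberg adjustment. All adjusted p-values are two-sided and come from this fit, fold changes are given as log2 ± SE, and the scale understates changes of genes with few reads. The fit was checked on simulated data. Counting intervals and floors cover counting error only.

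The interval, the gene lists and the tests were chosen with earlier results of these data known. The largest changes were named by a rule: the 12 called genes with the largest change in each direction, without overlap between groups and averaging 100 or more normalized counts where they were higher, and the 3 most abundant called genes with at most 3 reads in each library of the lower group. Up to 8 called members of each gene list, the members that define a list (1 of them is not reported here), the transgene row, and every member where a count was 5 or fewer were named too. *Fgb*, *Lgmn*, *Myo6*, *Myo7a* and *Bcat1*, members between 2-fold and 4-fold and the promoters shown were chosen after their values were seen.

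Replicate numbers of the 24 h and 48 h samples were checked for pairing. Deviations from the group means correlated at 0.249, 0.193, 0.206 and 0.245 for the same number, at 0.201 to 0.240 for the other number of the same set (replicates 1 and 2, or 3 and 4), and at -0.252 to -0.171 across sets. The pairing comes from these data and not from the labels. Alternatives covered the pseudocount, filter, scaling, model, sets and each left-out sample. Promoters came from RefSeq (GRCm38.p6), and gene coordinates are those of GRCm38.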

Additional observations from a re-analysis of the deposited data

Results flagged for a closer look

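Dixon's test was applied to the 4 samples of each time point for every gene named and for the shares of reads, 302 groups in all, and 9 stood out. Chance alone flags about 1 in 20 such groups. At 48 h, *Sox17* had 1105 normalized counts in replicate 1, with 1052 to 1061 in the others, *Jun* had 138 in replicate 2, with 83.6 to 90.6 in the others, and *Nog* had 4.13 in replicate 4, with 9.42 to 10.4 in the others. The mitochondrial share of reads was 2.35% in 48 h replicate 1 and 2.07% to 2.099% in the others. At 24 h, *Fgb* had 8.97 in replicate 4 against 3.13 to 4.06, *Lgals2* had 12.2 in replicate 3 against 6.01 to 6.88, and *Ptafr* had 24.02 in replicate 1 against 43.2 to 46.7. *Ttr* had 2.03 in 24 h replicate 3 and *Cfc1* had 1.63 in 24 h replicate 4, with no read in the other 24 h samples.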

How the results depend on the processing

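The counts of called genes, 382 higher and 214 lower, depended most on how low levels were treated. They were 225 and 81 with a pseudocount of 5, 162 and 103 among genes with a mean of at least 50, and 249 and 86 on the deposited log2 values. Under the remaining alternatives they lay within 1.5 times the main counts, with 358 to 403 higher and 198 to 253 lower when 1 sample was left out. Upper-quartile scaling shifted the median of all genes by -0.11 and gave 335 higher and 242 lower, and no named gene changed direction under it. The replicate block gave 382 and 214 and changed no other call at 4-fold, except that the rise of 3.39 percentage points in the share of the 100 most abundant genes then had p = 0.125 (exact sign-flip test), the smallest it allows. That rise was 2.98 to 3.82 percentage points with 1 sample left out. The difference in the share of reads on mitochondrially encoded genes changed sign in replicates 3 and 4 alone (0.0292 percentage points) and ran from -0.115 to 0.0706 with 1 sample left out. *H19* was at -0.21 in replicates 3 and 4 alone. Within replicates 1 and 2 alone 11 named genes lost their call, and within replicates 3 and 4 alone 7 did. Of 149 named genes, 116 kept their call and direction in every alternative, and *H19* was the only one to change sign. The causes were not tested. Genes with few reads at either time are the ones that depth limits.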
